A study of Homo sapiens with 32 samples.

Results

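Protein-coding mRNA was compared between HEK293 cells that received EGF and AngII together for 24 h and control cells of the same time. HEK293 is an established human embryonic kidney cell line. All cells, the control included, were transiently transfected with the angiotensin II type 1 receptor AT1R, a G protein-coupled receptor, and were moved to medium without serum before stimulation. The EGF+AngII cells were given 10 µg/l EGF and 1 nM AngII and the control cells neither, and 2 further groups of 24 h received EGF or AngII alone. The comparison holds 7 of the 32 samples of the series, namely EGF+AngII libraries b07, b15 and b16 and control libraries b01, b02, b09 and b10, chosen by their labels. Another EGF+AngII sample, b08, was not analysed here, so that 31 libraries with counts were used in all. The library numbers of the labels form 2 series, and b01, b02 and b07 belong to series 1 and the other 4 to series 2. Nothing in the labels says that libraries of a group came from separate cultures, so that the p-values measure the spread between libraries, which may be technical.

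EGFR, the receptor of EGF, is a tyrosine kinase that signals through Ras and the kinases ERK1/2. ERK1/2 switch on immediate early genes such as EGR1 soon after stimulation, in part through serum response factor (SRF), which binds the CArG box, and they also raise their own inhibitors of the Sprouty and SPRED families. AT1R acts mainly through Gq and G12/13 and so reaches calcium, protein kinase C and the actin cytoskeleton. ATF4, which is prominent in the results, is a transcription factor that cells use when amino acids run short or the endoplasmic reticulum is stressed, and it switches on genes that make, import and charge amino acids onto tRNA.

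The control libraries held 10127528 to 20773469 counts and the EGF+AngII libraries 6646227 to 33070903. Protein-coding genes took 4868215 to 8017024 counts in control and 3216794 to 8028878 with EGF+AngII. U1 small nuclear RNA took 8.9% to 22.9% of a control library and 10.3% to 55.6% of an EGF+AngII library, with b16 at the top of this range. Columns of 2 of the 4 control and 2 of the 3 EGF+AngII libraries are named as filtered in the deposited table. Levels are given as FPM, that is, counts scaled by TMM to the protein-coding total and expressed per 10 to the power 6, so that U1 counts do not enter them. With a block by these columns in place of the library series 31 genes were called against control, where the fit described below called 41, and the part of the U1 share in the results was not tested. Summed HEK293 markers were at 3546 to 4095 FPM in control and 5870.0 to 6329 FPM with EGF+AngII, most of it NEFM, which was called. Of the 6 markers tested, 4 lay above 0. VIM was at 0.145, KRT8 at 0.50, CDH2 at -0.27 and INA at -0.38 on the log2 scale, all with overlapping libraries. The EGF+AngII libraries lay above all controls in 2 of the 6, NEFM and KRT18, of which KRT18 was not called. The same held for 4.13% of all genes tested. Summed markers of proximal tubule were at 22.5 to 48.6 FPM in control and 28.9 to 45.5 FPM with EGF+AngII, with SLC34A1 at 0 in all 7 libraries, and those of fibroblasts at 49.9 to 71.6 FPM in control and 40.9 to 56.1 FPM with EGF+AngII. Summed endothelial markers were at 0.809 to 1.85 FPM in control and 0.138 to 1.60 FPM with EGF+AngII, and leukocyte markers at 9.49 to 11.9 FPM in control and 6.402 to 8.76 FPM with EGF+AngII, with CD3E at 0. AGTR1, the gene of the transfected receptor, was at 862 to 1524 FPM in control and 1093 to 1444 FPM with EGF+AngII, and these ranges overlapped.

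After 24 h, EGF+AngII changed a small set of genes, and most of these rose. EGR1 rose by 2.91 ± 0.18 (SE) on the log2 scale, and genes of amino acid supply, such as ASNS (1.39 ± 0.14) and SLC7A11 (1.48 ± 0.21), rose with the factor ATF4 (0.66 ± 0.088). A gene was called at an adjusted p below 0.05 (edgeR's quasi-likelihood test, Benjamini-Hochberg), a fold change above 1.5 and a mean above 5 FPM in the higher group, with the library series as a block. Of 14294 genes tested, 41 were called (0.287%), 34 higher (0.238%) and 7 lower (0.049%) than in control. In the same fit and against the same control libraries, EGF alone gave 62 calls, 48 higher and 14 lower, and AngII alone 0. These counts rest on 4 libraries each for EGF and AngII and on 3 for EGF+AngII. They therefore do not compare the sizes of the responses. With EGF alone all 34 higher genes also lay above 0 and all 7 lower genes below 0. The median log2 fold change over all genes tested was -0.0099, and 48.3% of them lay above 0. An unadjusted p under 0.05 was reached by 8.93% of all genes tested, and counts of list members at that p are to be read beside this share. The 3 EGF+AngII libraries lay above all 4 control libraries in 33 of the 34 higher genes, as in 4.13% of all genes tested, and below them in 6 of the 7 lower genes, as in 3.49% of all. PTTG1 and C9orf69 were the called genes whose libraries overlapped. A change in many cells and a larger change in fewer cells cannot be told apart in these bulk samples.

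**Figure D1:**
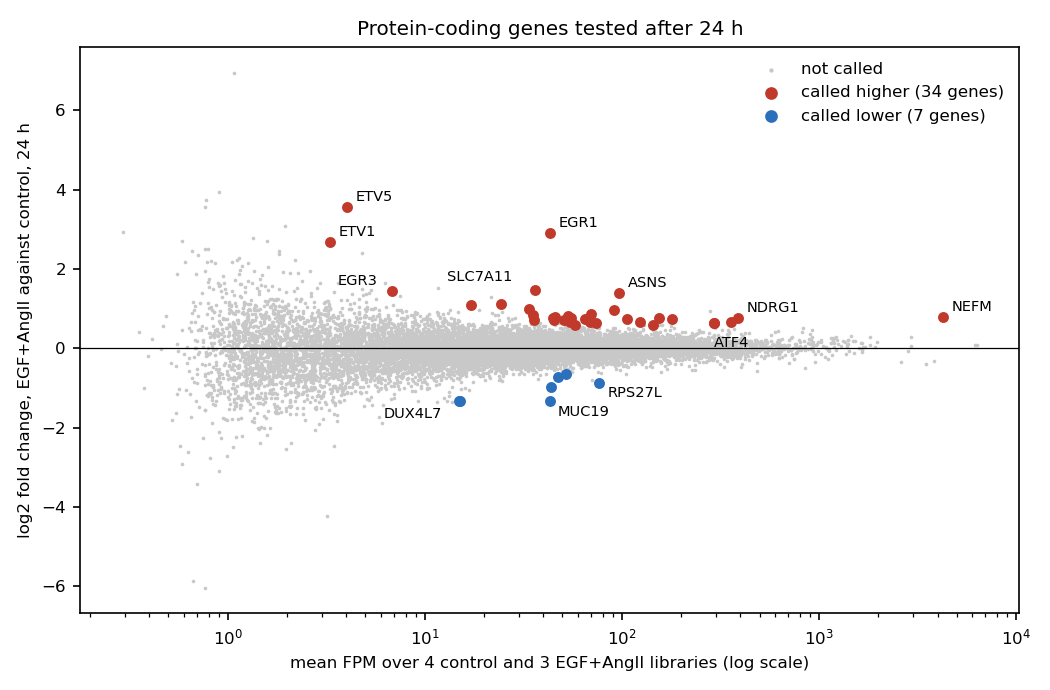
Log2 fold change of EGF+AngII against control after 24 h (vertical axis) against the mean level in FPM (horizontal axis, log scale) for the 14294 protein-coding genes tested, each point a gene. The 34 higher and the 7 lower genes are coloured, around a median over all genes of -0.0099. Of the called genes ETV5, EGR1 and ETV1 lie furthest up, while genes with few counts that were not called reach larger values.

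Immediate early genes are the first genes that a growth factor switches on, and most of them encode transcription factors. Of 25 such genes tested, 2 were called, both of them EGR zinc finger factors and both higher, and the median of the list was 0.28. EGR1 was at 12.5, 8.84, 13.8 and 9.79 FPM in control libraries b01, b02, b09 and b10. With EGF+AngII it was at 85.2, 94.2 and 77.8 FPM in b07, b15 and b16 (adjusted p = 4.59e-13, edgeR quasi-likelihood test). All 3 treated libraries thus stood far above every control library. EGR3 was at 2.23, 4.09, 3.56 and 5.23 FPM in control and at 8.12, 11.3 and 13.2 FPM with EGF+AngII, on 11, 31, 29 and 39 against 59, 37 and 107 counts, a rise of 1.45 ± 0.35 (adjusted p = 0.0483).

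The window upstream of EGR1 is shown because it holds sites through which SRF can act. EGR1 lies on the plus strand at chr5:137801168-137804992 (GRCh37), and the 250 bases before its start, chr5:137800918-137801167, hold 2 matches to the CArG box, at -105 to -96 and -83 to -74 from the start, set in capitals.
EGR1: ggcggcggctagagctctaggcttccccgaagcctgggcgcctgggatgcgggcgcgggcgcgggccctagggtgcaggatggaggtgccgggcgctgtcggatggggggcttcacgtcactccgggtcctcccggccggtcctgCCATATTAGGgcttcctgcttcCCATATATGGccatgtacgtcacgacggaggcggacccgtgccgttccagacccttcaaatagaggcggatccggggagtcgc
The window also holds the letters GCGNGGGCG, which EGR factors bind, at -198 to -190, apart from both CArG boxes. Upstream windows came from RefSeq (GRCh38.p14) and were placed in GRCh37 by an exact match. They were at hand for 29 of the 41 called genes, 24 of the 34 higher and 5 of the 7 lower. On either strand, a CArG box lay in the windows of 2 of these 24 higher genes, EGR1 and GARS, and of 1.01% of the 11355 genes tested that had a window. The EGR letters lay in 5 of the 24 (EGR1, HERPUD1, SLC7A5, PCK2 and ULBP1), against 13.8% of all, and the AP-1 letters TGAGTCA in 1 (ARRDC4), against 2.43%.

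Other immediate early genes gave values without a call. ARC, a synaptic protein whose gene SRF controls, was at 0, 1.19, 4.91 and 0.268 FPM in control and at 6.74, 11.9 and 8.76 FPM with EGF+AngII, on 0, 9, 40 and 2 against 49, 39 and 71 counts. Its libraries did not overlap, and its log2 fold change of 2.41 ± 0.66 had an adjusted p of 0.109. FOS, a subunit of AP-1, was at 7.08, 9.10, 3.44 and 2.68 FPM in control and at 11.6, 6.10 and 4.20 FPM with EGF+AngII, which overlapped (0.56 ± 0.41, adjusted p = 0.755). EGR2 was at 0.805 to 4.09 FPM in control and 2.44 to 5.78 FPM with EGF+AngII, also with overlap (0.99 ± 0.69, adjusted p = 0.736). JUN, the partner of FOS, ranged over 451 to 485 FPM in control and 486 to 536 FPM with EGF+AngII (0.12 ± 0.1, adjusted p = 0.778). MYC had an adjusted p of 0.0398 at a log2 fold change of 0.36 ± 0.086, under the fold threshold, with 805 ± 21.6 FPM in control (SD, n = 4) and 1035 ± 21.6 FPM with EGF+AngII (SD, n = 3).

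ERK1/2 signalling raises its own inhibitors and the ETS transcription factors of the PEA3 group. Of 16 genes of this kind tested, 3 were called, all higher (SPRED2, ETV5 and ETV1), the median was 0.52, and 16 lay above 0. With EGF alone their median was 0.55. SPRED2, an inhibitor of the Ras-ERK pathway, was at 39.6, 44.7, 30.3 and 45.3 FPM in control and at 72.8, 65.2 and 73.7 FPM with EGF+AngII (0.82 ± 0.16, adjusted p = 0.00473). ETV5 rested on 1, 16, 2 and 1 counts in control libraries b01, b02, b09 and b10 and on 49, 30 and 79 counts in b07, b15 and b16. The single library b02 held most of the control counts, and the fitted log2 fold change of 3.56 ± 0.74 (adjusted p = 0.0108) has the largest SE of the 41 genes. ETV1 had 7, 10, 5 and 6 counts in control and 65, 18 and 37 with EGF+AngII, with no overlap in FPM (2.68 ± 0.59, adjusted p = 0.0208). Neither ETV gene was called in DESeq2 or without b07, b09, b10, b15 or b16. SPRY1, a Sprouty inhibitor, was at 32.97 ± 9.76 FPM in control (SD, n = 4) and 44.1 ± 10.4 FPM with EGF+AngII (SD, n = 3), without a call (0.50 ± 0.18, adjusted p = 0.302). GAB2, a docking protein of receptor tyrosine kinases outside this list, was at 35.2 to 47.2 FPM in control and 66.2 to 75.01 FPM with EGF+AngII (0.76 ± 0.14, adjusted p = 0.00473).

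ATF4 and its targets held more called genes than any other list. The lists were chosen with earlier results of these data known, so that this rank is no independent evidence. Over all genes tested, 0.287% were called. Of 20 genes of ATF4 and the amino acid response tested, 5 were called, all higher (ATF4, ASNS, STC2, ATF3 and CEBPG), the median was 0.50 and 19 lay above 0. With EGF alone their median was 0.51. ATF4 was at 254, 331, 265 and 301 FPM in control libraries b01, b02, b09 and b10 and at 459.8, 444 and 452 FPM in EGF+AngII libraries b07, b15 and b16 (adjusted p = 4.14e-05, edgeR quasi-likelihood test). The treated libraries lay in a narrow range above all controls. ASNS, asparagine synthetase, was at 73.2, 73.98, 47.9 and 41.7 FPM in control and at 146, 164 and 132 FPM with EGF+AngII (adjusted p = 1.75e-07). The control libraries of series 1 stood above those of series 2, and every treated library stood above both. STC2, a secreted glycoprotein, was at 79.9, 81.1, 41.1 and 67.9 FPM in control and at 109, 138 and 119 FPM with EGF+AngII (0.95 ± 0.16, adjusted p = 0.00218). ATF3 and CEBPG are bZIP factors that can pair with ATF4 or act beside it. ATF3 was at 82.01 to 118 FPM in control and 141 to 162 FPM with EGF+AngII (0.66 ± 0.13, adjusted p = 0.00473), and CEBPG at 46.4 to 59.9 FPM and 84.9 to 91.5 FPM (0.65 ± 0.14, adjusted p = 0.0132), both without overlap.

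ATF4 binds a short element, the CARE, whose letters TGATGNAA were searched on both strands of the same upstream windows. They lay in 3 of the 24 windows of higher genes (ASNS, HERPUD1 and ATF3), in 0 of the 5 of lower genes and in 1.37% of the windows of all genes tested. The matches are shown because these genes rose together with ATF4. Each stands within 30 bases read along the strand of its gene, with the matched letters in capitals, and HERPUD1 carries them on the opposite strand.
ASNS: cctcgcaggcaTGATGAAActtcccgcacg
HERPUD1: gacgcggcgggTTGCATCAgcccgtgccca
ATF3: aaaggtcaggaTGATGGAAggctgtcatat
The bases are chr7:97501770-97501799 on the minus strand for ASNS, chr16:56965867-56965896 on the plus strand for HERPUD1 and chr1:212738547-212738576 on the plus strand for ATF3 (GRCh37). The letters lie at -68 to -61, -176 to -169 and -191 to -184 from the RefSeq starts. In ASNS the site lies inside the annotated span of the gene, chr7:97480989-97501854. A single start per gene was searched, and that of ATF3 lies near the upstream end of its span, chr1:212738676-212794119. Which start the cells used was not tested.

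Amino acid transporters move amino acids across the cell membrane. Of 16 tested, 2 were called, both higher, 4 had an adjusted p below 0.05, and the median was 0.34. SLC7A11, the cystine-glutamate exchanger subunit xCT, was at 25.5, 25.98, 14.2 and 17.4 FPM in control and at 49.8, 72.2 and 48.6 FPM with EGF+AngII (adjusted p = 7.22e-05, edgeR quasi-likelihood test). As with ASNS, the control libraries of series 1 lay above those of series 2, and the treated libraries above both. SLC7A5, the light chain of the leucine transporter LAT1, was at 50.2, 47.3, 59.4 and 42.7 FPM in control and at 76.8, 96.6 and 80.1 FPM with EGF+AngII (0.73 ± 0.13, adjusted p = 0.00369). SLC7A1, the cationic amino acid transporter CAT1 (0.37 ± 0.079, adjusted p = 0.0132), and SLC38A1, a glutamine transporter (0.39 ± 0.081, adjusted p = 0.0106), passed the adjusted p but not the fold threshold.

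Aminoacyl-tRNA synthetases load amino acids onto tRNA, with one set for the cytosol and another for mitochondria. Of 20 cytosolic synthetases tested, 2 were called, both higher (YARS and GARS), 18 lay above 0 and the median was 0.27. With EGF alone their median was 0.31. Of 17 mitochondrial synthetases, 0 were called by edgeR's quasi-likelihood test and 0 by DESeq2, 0 had an unadjusted p under 0.05, 9 lay above 0 and the median was 0.025. YARS, tyrosyl-tRNA synthetase, was at 144, 150.2, 139 and 129.8 FPM in control and at 206, 261 and 229 FPM with EGF+AngII (0.73 ± 0.10, adjusted p = 7.22e-05). All treated libraries lay above the highest control library. GARS, glycyl-tRNA synthetase, was at 81.1 to 141 FPM in control and 188 to 226 FPM with EGF+AngII (0.76 ± 0.14, adjusted p = 0.00473). SARS, seryl-tRNA synthetase, was at 155 ± 2.74 FPM in control (SD, n = 4) and 224 ± 17.1 FPM with EGF+AngII (SD, n = 3), with an adjusted p of 0.00274 at a log2 fold change of 0.51 ± 0.091, under the fold threshold.

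Of 15 genes of serine, one-carbon and proline synthesis, 0 were called by edgeR's quasi-likelihood test and 1 by DESeq2, 8 had an unadjusted p under 0.05, 12 lay above 0 and the median was 0.37. SHMT2, which turns serine into glycine in mitochondria (0.51 ± 0.097, adjusted p = 0.00473), and PHGDH, the first enzyme of serine synthesis (0.47 ± 0.11, adjusted p = 0.0391), passed the adjusted p but not the fold threshold. ALDH1L2, a mitochondrial folate enzyme, lay just outside the adjusted p (0.64 ± 0.16, adjusted p = 0.0523), and PSAT1 of serine synthesis was not called (0.60 ± 0.18, adjusted p = 0.144). Enzymes outside this list were called. PCK2, mitochondrial PEP carboxykinase, was at 30.5 to 39.03 FPM in control and 50.1 to 70.1 FPM with EGF+AngII (0.76 ± 0.16, adjusted p = 0.0132). ASS1, argininosuccinate synthase, was at 22.3 to 34.01 FPM and 42.9 to 52.7 FPM in the same order (0.84 ± 0.18, adjusted p = 0.0132), and ME2, mitochondrial malic enzyme, at 32.1 to 55.9 FPM and 67.1 to 69.2 FPM (0.66 ± 0.147, adjusted p = 0.0208).

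Chaperones and folding enzymes of the endoplasmic reticulum share inducers with ATF4. Of 22 genes tested, 1 was called, and the median was 0.072. The called gene was HERPUD1, a membrane protein of the degradation of misfolded proteins, at 18.6, 31.8, 25.5 and 19.4 FPM in control and at 51.9, 40.9 and 47.6 FPM with EGF+AngII (1.00 ± 0.18, adjusted p = 0.00274). All treated libraries lay above all controls. XBP1, a transcription factor of the unfolded protein response, was at 81.96 ± 9.01 FPM in control (SD, n = 4) and 102 ± 5.19 FPM with EGF+AngII (SD, n = 3), without a call (0.34 ± 0.12, adjusted p = 0.307). SEC24D, a coat protein of vesicles that leave the endoplasmic reticulum, is outside this list and was at 11.7 to 21.8 FPM in control and 31.1 to 37.7 FPM with EGF+AngII (1.11 ± 0.22, adjusted p = 0.00843).

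In the list of hypoxia response and glycolysis, 1 of 30 genes tested was called, with a median of 0.14. NDRG1, a stress-responsive gene, was at 405, 394, 204 and 250.3 FPM in control and at 536, 429 and 502 FPM with EGF+AngII (0.76 ± 0.12, adjusted p = 0.000567). The groups did not overlap, but the control libraries of series 1 lay close to the lowest treated library. ALDOA, a glycolytic aldolase, passed the adjusted p but not the fold threshold (0.40 ± 0.076, adjusted p = 0.00473). LDHA, lactate dehydrogenase (0.47 ± 0.11, adjusted p = 0.0608), and SLC2A3, the glucose transporter GLUT3 (0.92 ± 0.24, adjusted p = 0.0725), were not called.

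HEK293 cells express neurofilament genes, and NEFM, the medium neurofilament chain, was among the called genes. It was at 3256, 3025, 3086 and 3637 FPM in control and at 5704, 5395 and 5804 FPM with EGF+AngII (0.79 ± 0.087, adjusted p = 1.06e-06). CLU, the secreted chaperone clusterin, was at 45.5, 51.03, 60.5 and 47.5 FPM in control and at 83.4, 96.9 and 102 FPM with EGF+AngII (0.86 ± 0.14, adjusted p = 0.00077). No treated library of either gene came near the controls. They were the called members of a list of 10 neuronal and late EGF genes tested, which was drawn up with the response of such genes in these data known and is no independent evidence of direction (median 0.50, 8 above 0). SCARA5, a ferritin receptor of that list, was at 61.3 ± 3.72 FPM in control (SD, n = 4) and 91.7 ± 6.57 FPM with EGF+AngII (SD, n = 3), just under the fold threshold (0.58 ± 0.13, adjusted p = 0.0295). GPR50, an orphan receptor, was at 0.443 ± 0.472 FPM in control (SD, n = 4) and 3.98 ± 1.12 FPM with EGF+AngII (SD, n = 3), with an adjusted p of 0.127.

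The remaining higher genes have diverse functions. HIST1H4K was at 178, 253, 245 and 253 FPM in control and at 335, 367 and 429 FPM with EGF+AngII (0.63 ± 0.11, adjusted p = 0.00208), and HIST1H4J at 177, 251, 242 and 252 FPM and at 331, 367 and 426 FPM (0.63 ± 0.11, adjusted p = 0.00208). Both encode histone H4 from near-identical copies, so that their values are uncertain and the genes may share reads. All histone genes together took 1.01% to 1.55% of the protein-coding counts in control and 1.15% to 1.36% with EGF+AngII. ARRDC4, an alpha-arrestin, was at 89, 107, 67.9 and 72.03 FPM in control and at 139, 143 and 122 FPM with EGF+AngII (0.74 ± 0.13, adjusted p = 0.00274). SNRPA, the A protein of the U1 particle, was at 103 to 139 FPM in control and 171 to 184 FPM with EGF+AngII (0.60 ± 0.12, adjusted p = 0.00856), and the U1 share of these libraries is given above.

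Several of the called genes encode secreted or surface proteins. IGF2, a growth factor, was at 9.10 to 15.6 FPM in control and 20.8 to 27.7 FPM with EGF+AngII (1.09 ± 0.25, adjusted p = 0.0312). TIMP1, an inhibitor of matrix metalloproteinases, was at 51.4 to 71.7 FPM and 85.4 to 99.2 FPM (0.63 ± 0.148, adjusted p = 0.0351). ULBP1, a ligand of the killer cell receptor NKG2D, was at 24.8 to 32.4 FPM and 42.4 to 49.8 FPM (0.72 ± 0.17, adjusted p = 0.0415). In all 3 genes the treated libraries lay above all controls. UNC5B is a netrin receptor and was at 23.5 to 46.3 FPM in control and 46.4 to 72.5 FPM with EGF+AngII, so that its groups nearly touched (0.72 ± 0.17, adjusted p = 0.0351). The other called genes act inside the cell. PER1 belongs to the circadian clock and was at 26.7 to 42.99 FPM in control and 55.2 to 65.02 FPM with EGF+AngII (0.78 ± 0.16, adjusted p = 0.0117). HAX1, which protects cells from apoptosis, was at 41.1 to 59.7 FPM and 67.4 to 77.9 FPM (0.60 ± 0.14, adjusted p = 0.0351). PTTG1, the securin of sister chromatids, had overlapping libraries, at 29.1 to 57.2 FPM in control and 56.1 to 78.4 FPM with EGF+AngII (0.72 ± 0.154, adjusted p = 0.0139).

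**Figure D2:**
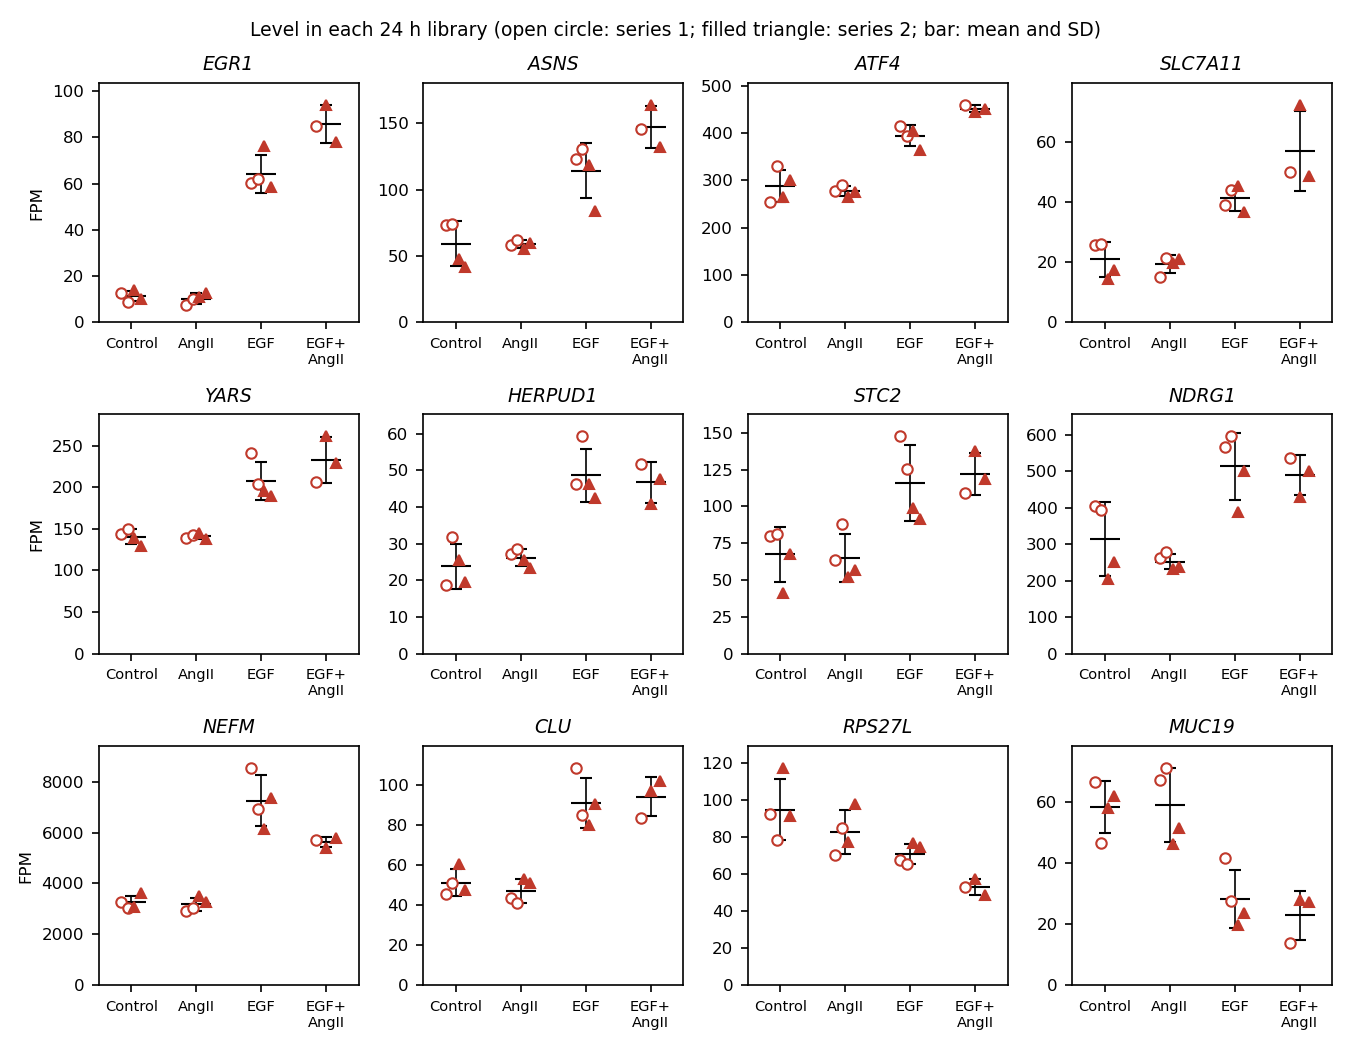
Level in FPM (vertical axis, from 0) of called genes in each 24 h library of control, AngII, EGF and EGF+AngII, with the mean and SD of each group (n = 4, and 3 for EGF+AngII) and the library series shown by the marker. In EGR1 the EGF+AngII libraries stand at 77.8 to 94.2 FPM against 8.84 to 13.8 FPM in control, and in RPS27L at 48.9 to 57.3 FPM against 78.3 to 118 FPM.

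Lower genes were fewer, and none of the 7 belonged to a list. RPS27L, a relative of the ribosomal protein S27 that p53 induces, was at 92.8, 78.3, 118 and 91.3 FPM in control and at 52.96, 57.3 and 48.9 FPM with EGF+AngII (-0.87 ± 0.14, adjusted p = 0.000527). MUC19, a gel-forming mucin, was at 66.5, 46.5, 57.95 and 61.7 FPM in control and at 13.6, 27.7 and 27.1 FPM with EGF+AngII (-1.33 ± 0.24, adjusted p = 0.00473). All treated libraries of both genes lay below all controls. ZBTB12, a zinc finger gene, was at 40.2 to 68.4 FPM in control and 25.5 to 30.5 FPM with EGF+AngII (-0.99 ± 0.20, adjusted p = 0.0108). COL4A6, a chain of basement membrane collagen, was at 54.6 to 69.98 FPM and 33.4 to 44.2 FPM (-0.66 ± 0.151, adjusted p = 0.0282). DUX4L7 and DUX4L4 are near-identical copies of a double homeobox repeat, so that their values are uncertain. DUX4L7 was at 12 to 26.03 FPM in control and 5.92 to 10.4 FPM with EGF+AngII (-1.33 ± 0.28, adjusted p = 0.011), and DUX4L4 at 11.5 to 27.1 FPM and 5.37 to 10.4 FPM (-1.33 ± 0.28, adjusted p = 0.0132). C9orf69 had overlapping libraries, at 34.1 to 83.03 FPM in control and 25.4 to 43.3 FPM with EGF+AngII (-0.72 ± 0.17, adjusted p = 0.0451).

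Of 11 targets of p53 tested, 0 were called by edgeR's quasi-likelihood test and 0 by DESeq2, and 6 had an unadjusted p under 0.05. Their median was -0.31 and 1 lay above 0. This was CDKN1A, named for its direction (0.10 ± 0.12, adjusted p = 0.873). SESN1, a stress-induced inhibitor of mTORC1, was at 116 ± 12.97 FPM in control (SD, n = 4) and 81.8 ± 12.99 FPM with EGF+AngII (SD, n = 3) and passed the adjusted p but not the fold threshold (-0.45 ± 0.11, adjusted p = 0.0473). MDM2, the ubiquitin ligase that degrades p53, was at 372 ± 31.7 FPM in control (SD, n = 4) and 299.6 ± 10.99 FPM with EGF+AngII (SD, n = 3), without a call (-0.31 ± 0.088, adjusted p = 0.115). All EGF+AngII libraries of SESN1 and MDM2 lay below all control libraries.

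SRF and its cofactors gave no call. Of 21 cytoskeletal SRF targets tested, 0 were called by edgeR's quasi-likelihood test and 0 by DESeq2, 8 had an unadjusted p under 0.05, and the median was 0.20. Of 5 SRF cofactors, 0 were called by either tool and 0 had an unadjusted p under 0.05. Of the 21 targets, 14 lay above 0. The treated libraries lay above all controls in 6, as in 4.13% of all genes tested, and below them in 1, as in 3.49% of all. The members of lowest p were ACTG1, cytoplasmic gamma-actin (0.30 ± 0.078, adjusted p = 0.0785), TAGLN2, transgelin 2 (0.33 ± 0.089, adjusted p = 0.0904), and the tropomyosins TPM4 (0.30 ± 0.098, adjusted p = 0.234) and TPM1 (-0.44 ± 0.148, adjusted p = 0.27), none of them called. SRF was at 47.5 to 115 FPM in control and 89.7 to 101 FPM with EGF+AngII, an overlap (0.13 ± 0.16, adjusted p = 0.876), and its direction turned to -0.11 in series 2 alone and to -0.017 without b01. ELK1, a ternary complex factor, was not called (0.12 ± 0.153, adjusted p = 0.878). MKL1, the myocardin-related factor MRTF-A, was not called either (-0.146 ± 0.16, adjusted p = 0.861) and turned to 0.089 in series 1 alone. MYOCD was at 0 to 0.268 FPM in control and 0 to 0.305 FPM with EGF+AngII, too low to be tested.

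Receptor genes gave no call. Among genes of AT1R, the EGF receptor family and its ligands, edgeR's quasi-likelihood test and DESeq2 called 0 of 11 genes with a median of -0.0082, 2 at an unadjusted p under 0.05, and EGFR was at 57.3 to 68.01 FPM in control and 60.97 to 70.4 FPM with EGF+AngII (0.084 ± 0.16, adjusted p = 0.937). ERBB3, another receptor of the family, was at 4.66 ± 1.78 FPM in control (SD, n = 4) and 11.3 ± 6.99 FPM with EGF+AngII (SD, n = 3), without a call (1.31 ± 0.42, adjusted p = 0.219). RGS proteins shut off G proteins, and both tools called 0 of 12 genes with a median of 0.069, 2 at an unadjusted p under 0.05, with RGS16 at 22.3 ± 6.16 FPM in control (SD, n = 4) and 35.3 ± 5.15 FPM with EGF+AngII (SD, n = 3) (0.73 ± 0.21, adjusted p = 0.142). For TGF-beta signalling and ID genes, edgeR and DESeq2 called 0 of 11 genes with a median of -0.11, 3 at an unadjusted p under 0.05, while voom called 1. TGFB1, the ligand, was at 23.1, 15.8, 24.6 and 21.6 FPM in control and at 27.9, 44.5 and 44.3 FPM with EGF+AngII, without overlap (0.77 ± 0.21, adjusted p = 0.109).

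The metabolic, stress and growth lists gave 0 calls each in edgeR's quasi-likelihood test and in DESeq2. NRF2 targets were 12 genes with a median of 0.11, 1 at an unadjusted p under 0.05, heat shock proteins 11 genes with a median of 0.049, 2 at an unadjusted p under 0.05, and cholesterol and fatty acid synthesis 20 genes with a median of -0.11, 3 at an unadjusted p under 0.05. HMGCS1, an enzyme of cholesterol synthesis, had -0.24 ± 0.10 (adjusted p = 0.47), and its direction turned to 0.077 in series 1 alone. Genes of G1/S and DNA replication were 20 genes with a median of 0.011, 3 at an unadjusted p under 0.05, and those of mitosis 18 genes with a median of 0.06, 4 at an unadjusted p under 0.05. Interferon response genes were 8 genes with a median of -0.51, 1 at an unadjusted p under 0.05, and cytosolic ribosomal proteins 76 genes with a median of 0.13, 23 at an unadjusted p under 0.05, of which RPL28 passed the adjusted p but not the fold threshold (0.43 ± 0.097, adjusted p = 0.0295).

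**Figure D3:**
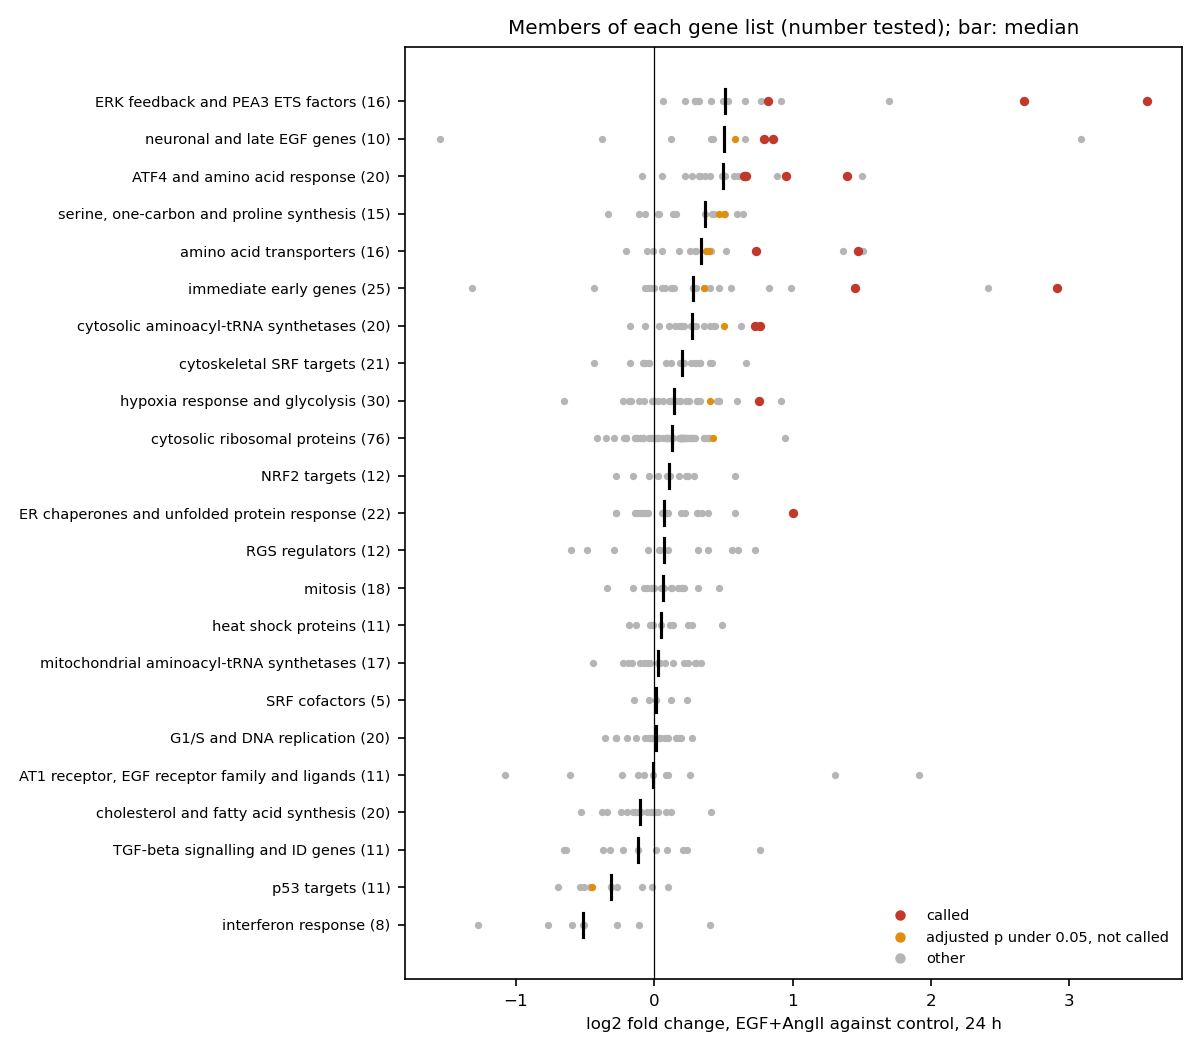
Log2 fold change of EGF+AngII against control after 24 h (horizontal axis) for the members tested of each gene list, each point a gene, with called genes coloured and the median of each list marked. The lists of ERK feedback (median 0.52), late EGF genes (0.50) and ATF4 (0.50) lie furthest to the right and the interferon (-0.51) and p53 lists (-0.31) furthest to the left.

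Both library series entered the fit, so that their separate values are a description. In the 34 higher genes the log2 fold change was above 0 in both series, with 0.42 to 3.01 in series 1, which has a single EGF+AngII library, and in the 7 lower genes it was below 0 in both, with -2.05 to -0.59 in series 1. Sizes differed for some genes between series 1 and series 2, as for ASNS (0.98 and 1.72), SLC7A11 (0.95 and 1.92), STC2 (0.44 and 1.23) and NDRG1 (0.43 and 1.04). ATF4 (0.65 and 0.67), HERPUD1 (1.03 and 0.99) and EGR1 (3.01 and 2.86) had close values in both. Series 2 alone gave 52 calls, 22 of them among the 41, and series 1 alone 3, of which 3 were among the 41. Without the series as a block 15 genes were called.

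Single libraries had weight in the count of calls. Without control library b02 69 genes were called, without b10 27, without b07 27 and without b15 or b16 22. The genes called in each of the 7 fits that left out 1 library were 12, namely EGR1, ASNS, NEFM, ATF4, YARS, SLC7A11, RPS27L, NDRG1, CLU, STC2, HERPUD1 and ARRDC4. Of these, NDRG1, STC2 and ARRDC4 were not called without the series block. MUC19 was lost only without b07 among the 7 fits. The genes lost in 5 or 6 of the 7 fits were SNRPA, ETV5, DUX4L4, PTTG1, ETV1, COL4A6, IGF2, TIMP1, UNC5B, HAX1, ULBP1, C9orf69 and EGR3.

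**Figure D4:**
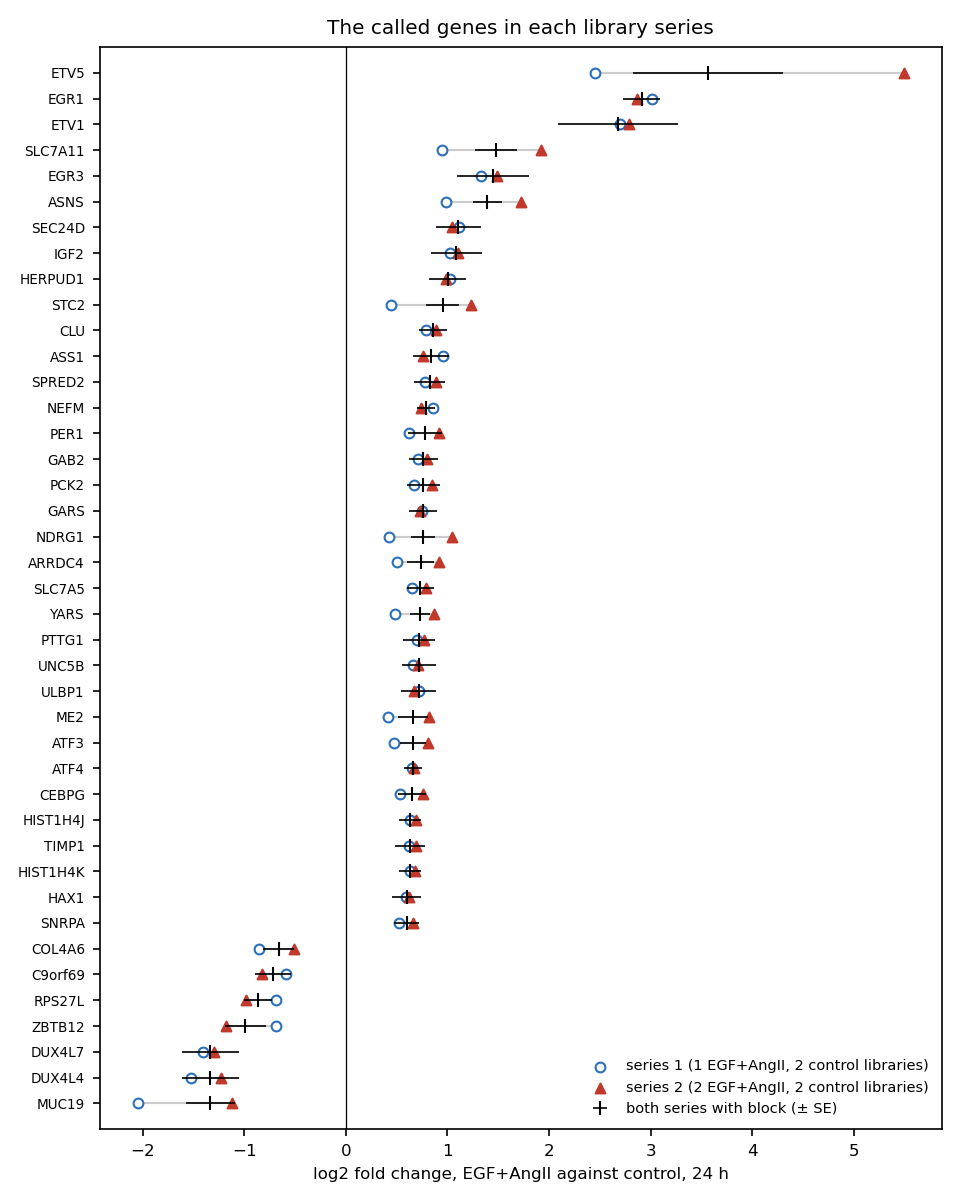
Log2 fold change of EGF+AngII against control (horizontal axis) for the 41 called genes in library series 1, in series 2 and in the fit of both with the series as a block (± SE). Both series lie on the same side of 0 for each gene, while ASNS (0.98 and 1.72) and SLC7A11 (0.95 and 1.92) differ in size, as does ETV5, which has few counts in control.

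Whether AngII added to the effect of EGF was asked by comparing EGF+AngII with EGF alone and by the interaction, the difference between the EGF+AngII effect and the sum of both single effects on the log2 scale. In edgeR's quasi-likelihood test 0 of 14294 genes were called against EGF (741 at an unadjusted p under 0.05, lowest adjusted p = 0.161) and 0 for the interaction (457 at an unadjusted p under 0.05, lowest adjusted p = 0.998). DESeq2 called 0 and 1. Against AngII alone, 44 genes (0.308%) were called, 33 higher and 11 lower. These comparisons share libraries with each other and with the comparison against control, so each gene's values are set side by side. The genes named were called through their EGF+AngII values, and the intervals against EGF, here and below, do not allow for that choice. EGR1 had means of 85.7 FPM with EGF+AngII, 64.3 FPM with EGF and 10.1 FPM with AngII, a difference from EGF of 0.39 (0.043 to 0.73, adjusted p = 0.921) with its 95% interval, and an interaction of 0.54 (0.024 to 1.06, adjusted p = 0.998). ASNS had means of 147 FPM with EGF+AngII, 114 FPM with EGF and 58.8 FPM with AngII, a difference from EGF of 0.42 (0.14 to 0.71, adjusted p = 0.783). SLC7A11 had means of 56.9 FPM, 41.1 FPM and 19.3 FPM in the same order, a difference from EGF of 0.47 (0.062 to 0.88, adjusted p = 0.909). None of these differences passed the adjusted p.

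Other genes had values on either side of those with EGF, again without a call. NEFM had means of 5634 FPM with EGF+AngII and 7253 FPM with EGF, a difference of -0.37 (-0.55 to -0.19, adjusted p = 0.408). HERPUD1 had 46.8 FPM and 48.6 FPM, a difference of -0.018 (-0.38 to 0.34), and NDRG1 489 FPM and 513 FPM, a difference of 0.014 (-0.22 to 0.25). RPS27L had 53.04 FPM with EGF+AngII, 71.1 FPM with EGF and 82.8 FPM with AngII, a difference from EGF of -0.45 (-0.73 to -0.17, adjusted p = 0.671). HIST1H4J had 375 FPM, 249 FPM and 302 FPM, and its difference from EGF, 0.55 (0.32 to 0.77, adjusted p = 0.161), had together with HIST1H4K the lowest adjusted p among the 41 genes. With AngII alone the log2 fold change against control was -0.16 (-0.54 to 0.23) for EGR1, 0.017 (-0.26 to 0.29) for ASNS and -0.059 (-0.23 to 0.11) for ATF4.

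**Figure D5:**
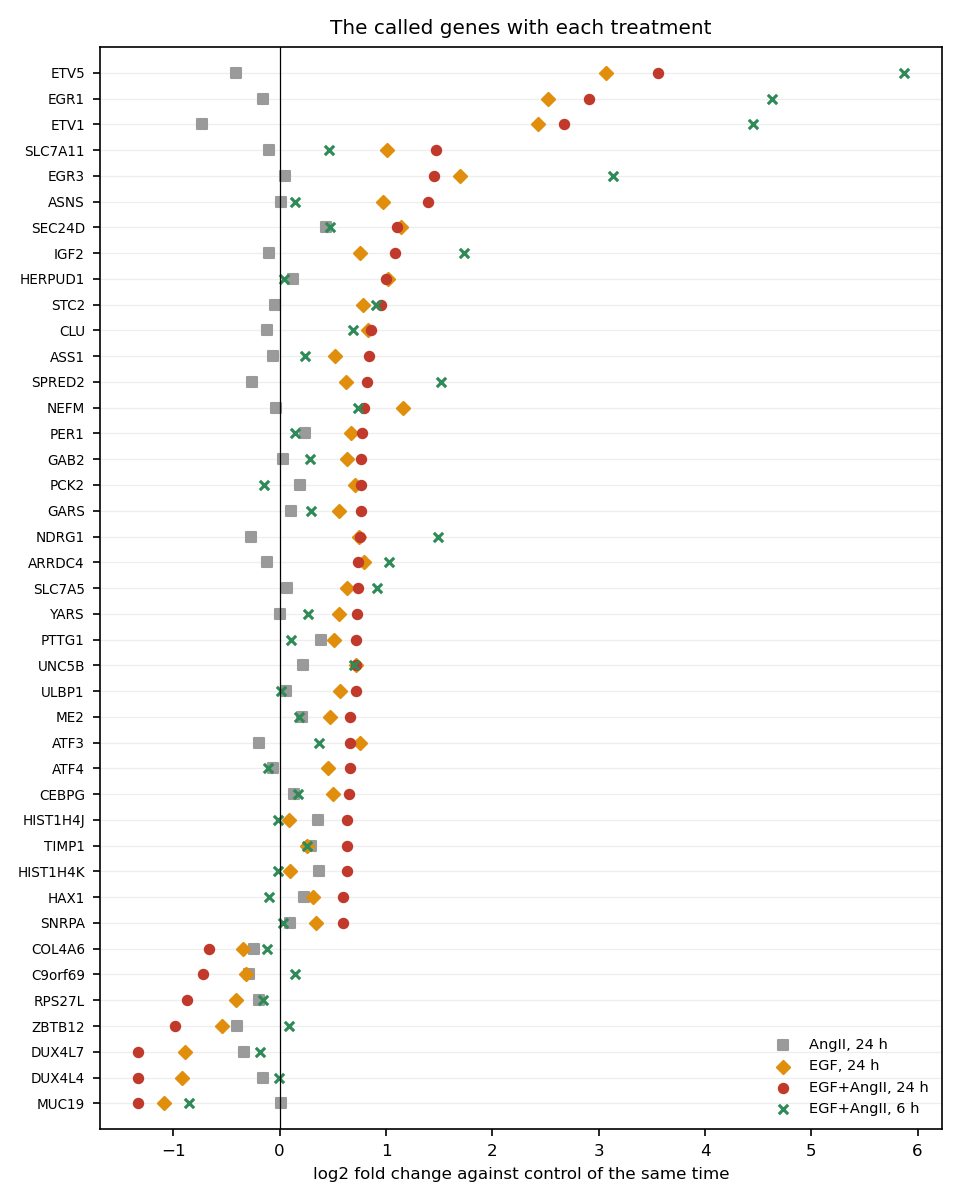
Log2 fold change against control of the same time (horizontal axis) for the 41 called genes with AngII, EGF and EGF+AngII after 24 h and with EGF+AngII after 6 h, told apart by marker and colour, where the 24 h values share their control libraries. EGR1 stands at 4.63 after 6 h and 2.91 after 24 h of EGF+AngII, ASNS at 0.14 and 1.39.

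The EGF+AngII effect was compared with that after 6 h, against the control libraries of that time, in a joint fit of 14284 genes tested. The libraries of each time are a separate set with its own numbering, and columns named as filtered occur only at 24 h. A difference between the times therefore cannot be told apart from one between the sets. The effect differed for 89 genes (0.623%), 22 with a higher and 67 with a lower value after 24 h, and 11 of the 41 genes called after 24 h were among them. Values of the joint fit are given for 6 h and 24 h. The effect was smaller after 24 h for EGR1 (4.63 and 2.92, adjusted p = 0.000316, edgeR quasi-likelihood test), EGR3 (3.13 and 1.45, adjusted p = 0.0429) and NDRG1 (1.49 and 0.76, adjusted p = 0.0189). It was larger for ASNS (0.14 and 1.398, adjusted p = 1.19e-05), ATF4 (-0.11 and 0.67, adjusted p = 0.000491), HERPUD1 (0.037 and 1.01, adjusted p = 0.015), PCK2 (-0.150 and 0.77, adjusted p = 0.0205), HAX1 (-0.10 and 0.60, adjusted p = 0.0203) and SLC7A11 (0.46 and 1.48, adjusted p = 0.0427). ZBTB12 (0.089 and -0.98, adjusted p = 0.0427) and C9orf69 (0.14 and -0.72, adjusted p = 0.024) had a lower effect after 24 h than after 6 h. NEFM (0.74 and 0.80, difference 0.061 ± 0.13), STC2 (0.91 and 0.96, difference 0.048 ± 0.21) and UNC5B (0.70 and 0.72, difference 0.02 ± 0.19) had close values at both times. ETV5 (5.87 and 3.51, difference -2.36 ± 1.06) and ETV1 (4.45 and 2.69, difference -1.76 ± 0.87) did not pass the adjusted p.

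Of the genes nearest the threshold, EGR3 was just inside (adjusted p = 0.0483) and TYMP (0.0521), WDR52 (0.0523) and ALDH1L2 (0.0523) just outside. On the adjusted p alone 77 genes passed, 59 higher (0.413%) and 18 lower (0.126%). Of the 36 that were not called, 35 had a fold change of at most 1.5, and KRT17, a keratin named here after its values were seen, was under the FPM threshold. KRT17 had 0 counts in all 4 control libraries, for which 3 counts correspond to 0.368 to 0.606 FPM, and was at 2.22 to 2.89 FPM with EGF+AngII, where counting error only is covered.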

How the data were processed

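RNA-seq libraries of HEK293 cells were read as the deposited tables give them. The deposited values are raw read counts per gene; the authors trimmed paired-end reads with Trim Galore and cutadapt 1.8.1, mapped them to hg19 with TopHat2 2.0.14 and counted with featureCounts 1.4.6, per the submitters' processing notes and the study's methods. The strand setting, and what "filtered" in some column names means, are not given in the sources used here. Groups came from the labels. Of 57773 rows, 20327 were protein-coding, and 14294 passed filterByExpr (minimum count 10). Counts of all 15 libraries of 24 h were fitted in edgeR 4.0.16 (R 4.3.3; TMM, robust quasi-likelihood, group means with the library series as a block), with Benjamini-Hochberg adjustment over all genes tested. The biological coefficient of variation was 18%. The 24 h and 6 h effects were compared in a joint fit of 31 libraries. Alternatives used DESeq2 1.42.0, limma 3.58.1 (voom with quality weights), other filters and thresholds, each series alone and leaving out each library. No pair of libraries in a group agreed within sampling noise. The code was tested on simulated counts. Genes named are the 41 called, with each library's value at least for the 15 of lowest p, the genes the study reports, and up to 4 members of lowest p from each list, and exceptions are marked. The gene lists, tests and members were chosen with earlier results of these data known. Sequences were read from RefSeq tables and searched in 250 bases upstream of a single start per gene. Confidence intervals are 95% and cover the spread in the fit. Figures were drawn with matplotlib 3.10.9.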

Additional observations from a re-analysis of the deposited data

Results flagged for a closer look

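A control library that stood apart from the other 3 was looked for with Dixon's test in the 51 genes called or reported by the study, and 5 were found, where chance gives about 1 in 20. HIST1H4K was at 178 FPM in b01 and at 245 to 253 FPM in the other 3, and HIST1H4J was at 177 FPM in b01 and at 242 to 252 FPM in the other 3. ETV5 was at 2.11 FPM in b02 and at 0.134 to 0.245 FPM in the other 3, so that b02 held most of its control counts. CEBPG was at 46.4 FPM in b10 and at 57.95 to 59.9 FPM in the other 3. JUN was at 451 FPM in b02 and at 480.2 to 485 FPM in the other 3.

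The effect of EGF+AngII differed between 24 h and 6 h for 11 of the 41 called genes in the joint edgeR quasi-likelihood test. The libraries of each time are a separate set. The difference, 24 h minus 6 h on the log2 scale, was below 0 with -1.72 ± 0.27 for EGR1 (adjusted p = 0.000316), -1.68 ± 0.43 for EGR3 (adjusted p = 0.0429), -0.72 ± 0.16 for NDRG1 (adjusted p = 0.0189), -1.07 ± 0.27 for ZBTB12 (adjusted p = 0.0427) and -0.86 ± 0.20 for C9orf69 (adjusted p = 0.024). It was above 0 with 1.26 ± 0.16 for ASNS (adjusted p = 1.19e-05), 1.02 ± 0.26 for SLC7A11 (adjusted p = 0.0427), 0.97 ± 0.21 for HERPUD1 (adjusted p = 0.015), 0.92 ± 0.21 for PCK2 (adjusted p = 0.0205), 0.77 ± 0.13 for ATF4 (adjusted p = 0.000491) and 0.71 ± 0.16 for HAX1 (adjusted p = 0.0203).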

How the results depend on the processing

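The count of genes against control, 41 (34 higher, 7 lower), was 15 (13 higher, 2 lower) without the series block, 71 (45 higher, 26 lower) in a fit of the 7 libraries alone, 67 (44 higher, 23 lower) in DESeq2, 67 (44 higher, 23 lower) in voom, 82 (51 higher, 31 lower) without the filter on low counts, 77 on the adjusted p alone and 22 at an adjusted p below 0.01. In series 1 alone it was 3, and leaving out 1 library gave 22 (b15 or b16) to 69 (b02). With all bioTypes, DESeq2 size factors, series 2 alone or, chosen after seeing the data, a block by the columns named as filtered it was 36, 41, 52 and 31. Against EGF, 0 calls became 1 in voom, 7 without the filter and 0 to 4 without 1 library (highest without b11). Against AngII, 44 became 22 without the block, 71 in the groups alone, 73 in voom, 19 in series 2, 8 in series 1 and 24 (b15) to 47 (b13) without 1 library. For the interaction, 0 became 1 in DESeq2 and 3 without the filter and was 0 in each fit without 1 library. For 24 h against 6 h, 89 became 28 without the block, 155 in DESeq2, 172 in voom, 162 without the filter, 25 at an adjusted p below 0.01 and 35 (b16) to 129 (b02) without 1 library. The cause of these changes was not tested.

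Of the 41 genes, 39 were called in DESeq2 and none changed direction in any fit run. SRF (reported as 0.13) turned to -0.11 in series 2 alone and ranged from -0.017 to 0.24 without 1 library, and in series 1 alone HMGCS1 turned to 0.077 and MKL1 to 0.089. No paired analysis was possible because replicate numbers shared between groups are absent from the labels. With 3 EGF+AngII libraries, and protein-coding totals down to 3216794 counts, changes of weakly expressed genes such as ETV5 and ETV1 carry wide errors.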

Other observations

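Several lower genes that passed the adjusted p of edgeR's quasi-likelihood test but not the fold threshold encode proteins that bind or process RNA. Those named here were singled out after their values were seen, and no test of the group was made. SFPQ, a splicing factor of paraspeckles, was at 833 to 1100 FPM in control and 667 to 720.3 FPM with EGF+AngII (-0.50 ± 0.082, adjusted p = 0.000918). SRSF6 and SRSF2, serine- and arginine-rich splicing factors, were at 168 to 219 FPM in control and 132 to 142 FPM with EGF+AngII (-0.51 ± 0.099, adjusted p = 0.0049) and at 111 to 125 FPM in control and 79.6 to 98.1 FPM with EGF+AngII (-0.45 ± 0.11, adjusted p = 0.0415). PCF11, a factor of transcript cleavage and termination, was at 145 to 161 FPM in control and 99.3 to 115 FPM with EGF+AngII (-0.48 ± 0.11, adjusted p = 0.0295), and the splicing regulator HNRNPH1 at 984 to 1202 FPM in control and 779.5 to 892 FPM with EGF+AngII (-0.35 ± 0.084, adjusted p = 0.0361). These libraries did not overlap between groups, while those of HNRNPM, a further splicing regulator, did (-0.48 ± 0.11, adjusted p = 0.0415). Of the EGF+AngII libraries, b16 had a U1 share of 55.6%, above the 8.9% to 22.9% of the controls. The shares of b07, 10.3%, and b15, 18.1%, lay within that range. The part of the U1 share in these values was not tested.

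Of the 25 higher genes that passed the adjusted p alone, TNC, the matrix protein tenascin C, was at 665 to 737 FPM in control and 967 to 1040 FPM with EGF+AngII (0.51 ± 0.078, adjusted p = 0.000442). BCAT1, which transfers amino groups from branched-chain amino acids, was at 87.9 to 129.8 FPM in control and 118 to 188 FPM with EGF+AngII (0.58 ± 0.12, adjusted p = 0.00856). The lysosomal protease CTSB was at 106 to 119 FPM in control and 159 to 193 FPM with EGF+AngII (0.58 ± 0.12, adjusted p = 0.0064), and MDH2, mitochondrial malate dehydrogenase, at 244 to 308 FPM in control and 379 to 388 FPM with EGF+AngII (0.46 ± 0.091, adjusted p = 0.00768). These genes, too, were chosen after their values were seen.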
